A study of Rattus norvegicus with 56 samples.

Results

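The genes described here are the chemokines and chemokine receptors of the rat brain, read on 1-color Agilent microarrays in the hippocampus and parietal cortex of the same animals. Members were chosen by name: probes whose RefSeq accession leads to a rat symbol of the Ccl, Cxcl, Ccr or Cxcr series, to Cx3cl1 or Cx3cr1, or to Xcl1 or Xcr1. They come to 50 genes, with 60 probes, among 16581 named genes and 45598 probes on the array. Ccr8 and Cxcl3 belong to the same families by name, but no probe was matched to them. Where a gene had more than 1 probe (8 genes), the brightest probe was used.

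The study asked how intermittent theta burst stimulation (iTBS), short magnetic pulse bursts delivered through a coil over the head, changed transcription across age and cognitive status. All animals were male Long-Evans rats that received isoflurane, then dexmedetomidine and its reversal agent antisedan, at a slightly lower dose per body weight in aged rats, and tissue was taken 48 h after stimulation. Sham animals had the coil placed away from the head. Each region held 24 animals: 4 young sham and 4 young iTBS animals at 6 to 7 months, and at 26 to 27 months 4 sham and 5 iTBS animals that were aged unimpaired (AU) and 4 sham and 3 iTBS animals that were aged impaired (AI). AU and AI are the cognitive classes that the labels give, and the methods describe a water maze for such classes in another experiment of the study, not for these animals. Tissue was microdissected from dorsal hippocampus and from cortex beneath the coil. The labels name more animals than the methods describe for this experiment, and the groups follow the labels. Region labels were checked against marker genes: 4 of 5 hippocampal markers were higher in the hippocampus and 5 of 5 cortical markers were higher in the cortex.

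Chemokines are small secreted proteins that guide migrating cells through G protein-coupled receptors. The CC, CXC, XC and CX3C families are named for the spacing of their first cysteines. In the brain, Cx3cl1 is made mainly by neurons and its receptor Cx3cr1 by microglia, Cxcl12 and Cxcr4 guide progenitor cells of the dentate gyrus, and inflammatory members such as Ccl2, Ccl3 and Ccl4 are made by activated microglia and attract monocytes and lymphocytes. In tissue RNA, fewer cells of a type and less RNA per cell cannot be told apart, and this holds for every difference given here.

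Levels are given as normalized signal on a log2 scale, where each array's log2 signals were centered on their mean and set to a common spread, so that 0 is the mean of all probes on the array. Tests within a region were limited to probes that the scanner software marked as well above background in 3 or more of its 24 animals. This left 33 members in the hippocampus, 32 in the cortex and 36 in either region. Of the 50 members, 17 were above background in all 24 animals of both regions, and 5 (Ccl25, Ccr2, Ccr6, Cxcl2 and Cxcr3) in 0 animals of either. Detection differed by family. Of the 20 CC ligands 18 were tested in at least 1 region, as were 9 of the 11 CXC ligands, but only 3 of the 9 CC receptors and 3 of the 6 CXC receptors. Receptors of circulating leukocytes were among those not tested: Ccr1, Ccr2, Ccr3, Ccr4, Ccr6, Ccr7, Cxcr2, Cxcr3, Cxcr6 and Xcr1. The ligands Ccl25, Ccl28, Cxcl2 and Cxcl9 also failed the filter in both regions.

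**Figure D1:**
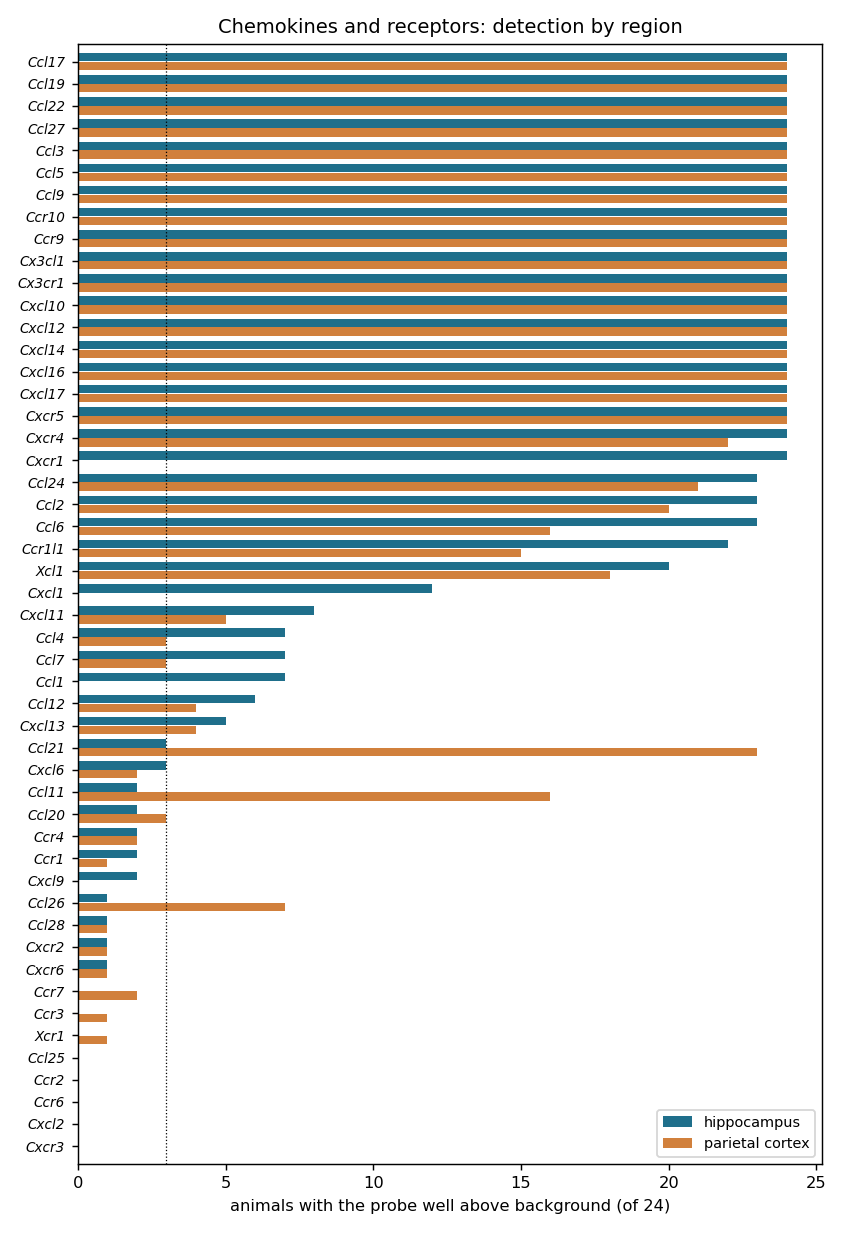
Number of animals (x axis, of 24) in which each of the 50 members (y axis) was well above background, in the hippocampus and in the parietal cortex; the dotted line marks the minimum of 3 animals for a test. The top 17 genes reached 24 animals in both regions, Cxcr1 reached 24 in the hippocampus and 0 in the cortex, and Ccl21 reached 3 and 23.

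Levels across the 24 arrays of a region set the scale for each gene. Cx3cl1, the membrane-bound neuronal chemokine, ranged from 9.27 to 9.95 (median 9.68) in the hippocampus and from 9.64 to 10.51 (median 10.03) in the cortex. Its receptor Cx3cr1 ranged from 4.80 to 6.46 (median 5.75) in the hippocampus and from 4.89 to 6.89 (median 5.78) in the cortex. Cxcl12 had medians of 5.28 and 5.75 and its receptor Cxcr4 of -0.10 and -1.37, in the hippocampus and cortex. Cxcl14, a ligand made in epithelia and brain, had medians of 8.17 and 8.28. Cxcl13, which attracts B cells, was above background in only 5 hippocampal and 4 cortical arrays.

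Some genes could not be described by 1 probe alone. The 3 probes of Cxcl12, which match 2 RefSeq transcripts, split: the brightest gave a hippocampus minus cortex difference of -0.52, the next 0.40 (adjusted p = 0.0106), and the remaining probe -0.09 (adjusted p = 0.469). The direction for Cxcl12 is given below for the brightest probe only. The brightest Cxcl14 probe gave a regional difference close to 0 (adjusted p = 0.986), whereas the other gave -0.23 (adjusted p = 2.79e-04). Both Ccl27 probes gave the same direction, whereas the second Ccr9 probe was above background in 0 hippocampal and 3 cortical arrays and gives no check.

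The regional contrast was the widest in the data. Between hippocampus and cortex of the same animal, 12 members were higher in the hippocampus and 8 were lower, of 36 tested (limma, Benjamini-Hochberg adjusted p under 0.05, paired by animal). Over all 33770 probes tested, 26.3% were called higher in the hippocampus and 23.2% lower, so the 55.6% of members called stood beside 49.4% of all probes. The median difference was 0.04 for the members and 0.02 for all probes. By family, 6 CC ligands, 3 CXC ligands, 2 CXC receptors and 1 CC receptor were higher in the hippocampus, and 4 CC ligands, 1 CXC ligand, Cx3cl1 and 2 CC receptors were lower. Of 7 tested homeostatic ligands, which act in resting tissue, 4 were lower in the hippocampus (Ccl21, Ccl27, Cxcl12 and Cx3cl1) and 0 higher.

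Cxcr1, a receptor for the neutrophil-attracting CXC ligands, showed the largest difference. Its hippocampal level ran from 1.15 to 2.33 with a median of 1.81, above background in 24 of 24 arrays, and its cortical level ran from -4.92 to -3.48 with a median of -4.63, above background in 0 of 24. All 24 animals had the higher level in the hippocampus, and the ranges did not overlap. The mean was 1.85 in the hippocampus against a measured -4.55 in the cortex. The measured difference was 6.39 (limma, adjusted p = 6.64e-21). With the cortex set to the lowest signal that counts as above background on each array, the hippocampal level was at least 32.8-fold higher on this scale, a bound that was not itself tested. With normexp background correction, which adds an offset of 50 to every signal, the log2 difference was 3.03 for Cxcr1, 0.32 for Cxcl1, 0.15 for Ccl1, -0.99 for Ccl21 and -0.44 for Ccl11, each in the same direction and called. Markers of neutrophils did not move with it: S100a9 was lower in the hippocampus, with a difference of -0.39 (adjusted p = 0.00186), and S100a8 and Camp did not pass the test. Cd3e, a T cell marker, was higher in the hippocampus by 4.77 (adjusted p = 1.92e-16) and was above background in 24 hippocampal arrays and 1 cortical array; it was the only 1 of 4 tested T and B cell markers called. The part of T cells or neutrophils in the Cxcr1 signal was not tested.

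Cxcl1, a ligand of the same receptor family, was above background in 12 hippocampal arrays and 0 cortical arrays. Its level ran from -4.07 to -1.90 (median -2.71) in the hippocampus and from -5.25 to -3.89 (median -4.59) in the cortex, and it was higher in the hippocampus in all 24 animals. The ranges overlapped slightly. The measured means were -2.71 in the hippocampus and -4.61 in the cortex, with a fitted difference of 1.88 (limma, adjusted p = 1.01e-10). Against the cortical detection limit the mean was at least 1.40-fold higher, a bound that was not itself tested. Ccl1, a T cell chemoattractant, exceeded background in 7 hippocampal and 0 cortical arrays, with measured means of -2.83 and -3.84 (adjusted p = 2.56e-06). As most of these signals were not detected, no fold is given.

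Ccl21, which steers dendritic cells and T cells through Ccr7, ran the other way. It was above background in 3 hippocampal and 23 cortical arrays, with levels from -5.04 to -0.23 (median -4.59) in the hippocampus and from -2.74 to 0.63 (median -0.71) in the cortex. The hippocampal level was lower in 23 of 24 animals, with a hippocampus minus cortex difference of -3.27 (SE 0.212, adjusted p = 4.10e-11). With hippocampal arrays set no lower than their detection limit, the cortical mean was 4.56-fold higher. Without AI sham animal 4 the difference was -3.42. That animal was the exception, with -0.23 in the hippocampus and -2.74 in the cortex. Its Cxcr1 levels followed those of the other animals, with the hippocampus higher. Ccl11, an eosinophil attractant, was above background in 2 hippocampal and 16 cortical arrays and was lower in the hippocampus (adjusted p = 3.49e-07). Its measured means were -3.85 in the hippocampus and -2.15 in the cortex, and with hippocampal arrays set no lower than their detection limit the cortical mean was 1.85-fold higher. Ccl26, another eosinophil attractant, was above background in 1 and 7 arrays, so its difference of -1.49 (adjusted p = 3.95e-05) compares mostly undetected signals and no fold is given.

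Promoter sequences were taken from RefSeq (build GRCr8), which held 40 of the 52 member symbols, 250 bases before to 50 bases after the start of each gene. They are shown for Cxcr1 and Ccl21, the members with the widest regional difference in each direction, and for Cxcl1 and Cxcl10, the called members that contain the letters GGAATTTCC, the core of a common NF-kappaB site. Capitals mark that motif or the TATA-box letters TATAAA, each searched on both strands (reverse complements GGAAATTCC and TTTATA), and neither overlaps the other here. The NF-kappaB letters occurred in 5 of the 40 member promoters (Ccr3, Cxcl1, Cxcl10, Cxcl11 and Cxcl6), or 12.5%, and in 0.332% of all 33469 promoters; TATAAA occurred in 27.5% of member promoters and 14.2% of all. These matches are a description of letters only.
Cxcr1, chr9:83220176-83220475, minus strand: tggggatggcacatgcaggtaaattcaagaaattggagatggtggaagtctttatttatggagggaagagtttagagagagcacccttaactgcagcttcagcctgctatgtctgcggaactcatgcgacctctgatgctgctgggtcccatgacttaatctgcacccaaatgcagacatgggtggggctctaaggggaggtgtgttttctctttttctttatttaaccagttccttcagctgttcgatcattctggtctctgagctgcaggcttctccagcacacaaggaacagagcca
Ccl21, chr5:61777466-61777765, minus strand: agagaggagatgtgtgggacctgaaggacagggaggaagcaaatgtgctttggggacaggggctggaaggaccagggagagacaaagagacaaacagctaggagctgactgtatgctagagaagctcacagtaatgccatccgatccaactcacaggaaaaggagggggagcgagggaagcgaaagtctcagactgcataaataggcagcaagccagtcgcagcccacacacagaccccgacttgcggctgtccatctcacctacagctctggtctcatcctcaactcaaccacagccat
Cxcl1, chr14:17479272-17479571, minus strand: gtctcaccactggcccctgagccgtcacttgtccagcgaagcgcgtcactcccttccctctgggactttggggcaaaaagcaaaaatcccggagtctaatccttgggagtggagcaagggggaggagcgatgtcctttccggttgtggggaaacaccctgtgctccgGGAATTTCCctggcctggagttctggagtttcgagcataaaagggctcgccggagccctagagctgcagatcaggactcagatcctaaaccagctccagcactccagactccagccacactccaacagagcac
Cxcl10, chr14:15988816-15989115, plus strand: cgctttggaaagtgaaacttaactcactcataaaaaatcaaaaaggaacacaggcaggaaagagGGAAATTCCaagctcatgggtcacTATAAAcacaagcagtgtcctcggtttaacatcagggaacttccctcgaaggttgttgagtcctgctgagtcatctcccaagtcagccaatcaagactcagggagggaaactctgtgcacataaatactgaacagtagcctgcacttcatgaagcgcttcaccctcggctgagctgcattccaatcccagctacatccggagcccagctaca

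Among members detected in most arrays of both regions, the receptor Cxcr4 was higher in the hippocampus in all 24 animals, with levels from -0.56 to 0.54 against -2.46 to -0.63 in the cortex. These ranges did not overlap, and the difference was 1.34 (SE 0.116, adjusted p = 4.04e-09). Its ligand Cxcl12, by the brightest probe, was lower in the hippocampus in all 24 animals, with a difference of -0.52 (SE 0.0659, adjusted p = 1.05e-06), with the probe disagreement given above. Ackr3, the scavenging receptor of Cxcl12, was higher in the hippocampus by 0.62 (adjusted p = 2.55e-07), and Dpp4, a peptidase that trims Cxcl12, was lower, with a difference of -3.60 (adjusted p = 2.99e-10). Cx3cl1 was lower in the hippocampus in 23 of 24 animals, with a difference of -0.43 (SE 0.0532, adjusted p = 7.76e-07), while Cx3cr1 differed by -0.04 (95% interval -0.23 to 0.15, adjusted p = 0.747).

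Ccl27, a skin-homing chemokine also present in brain, was lower in the hippocampus in all 24 animals, with a difference of -0.71 (SE 0.0472, adjusted p = 5.82e-11). Cxcl16, a membrane-bound ligand, was higher in the hippocampus in 22 of 24 animals, by 1.06 (SE 0.186, adjusted p = 7.16e-05). The other 5 CC ligands that were higher in the hippocampus differed less: Ccl2 by 0.67, Ccl3 by 0.35, Ccl6 by 0.32 and Ccl9 by 0.27, while Ccl4 (adjusted p = 0.00791) was above background in only 7 hippocampal and 3 cortical arrays and is given no fold. Cxcl10, the interferon-induced ligand, was higher by 0.87 (SE 0.233, adjusted p = 0.00404), and Ccr1l1, a receptor related to Ccr1, by 0.27. The calls of Ccl6 (adjusted p = 0.0323) and Ccr1l1 (adjusted p = 0.0373) were kept in only 17 and 12 of the 24 fits that left out 1 animal. The receptors Ccr10 and Ccr9 were lower, with differences of -0.26 and -0.44. Cxcl13 gave a difference of -0.42 (95% interval -1.16 to 0.32, adjusted p = 0.347). With the hippocampal slide as a random block only 11 of the 20 calls were left. Those were of Cxcr1, Cxcl1, Cxcr4, Cxcl16, Ccl1, Ccl21, Ccl11, Ccl26, Ccl27, Cx3cl1 and Cxcl12. The cortical slide did not enter this fit, so the fit does not adjust the regional difference for slide. The 11 members were also called in each alternative that tested them, but Cxcl12 in the opposite direction with its next brightest probe. In the first scan batch, where both regions of each animal were scanned on the same day, 17 members were called. The first arrays of an animal's regions always lay on different slides, and almost no slide held first arrays of both regions in number. Repeats of both regions of young sham animal 3 shared slides. They were averaged with its first arrays, and same-slide repeats were not compared apart from them. In these comparisons region and slide therefore cannot be told apart, also within the first scan batch, and pairing by animal does not separate them. In the sham animals alone 13 members were called.

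**Figure D2:**
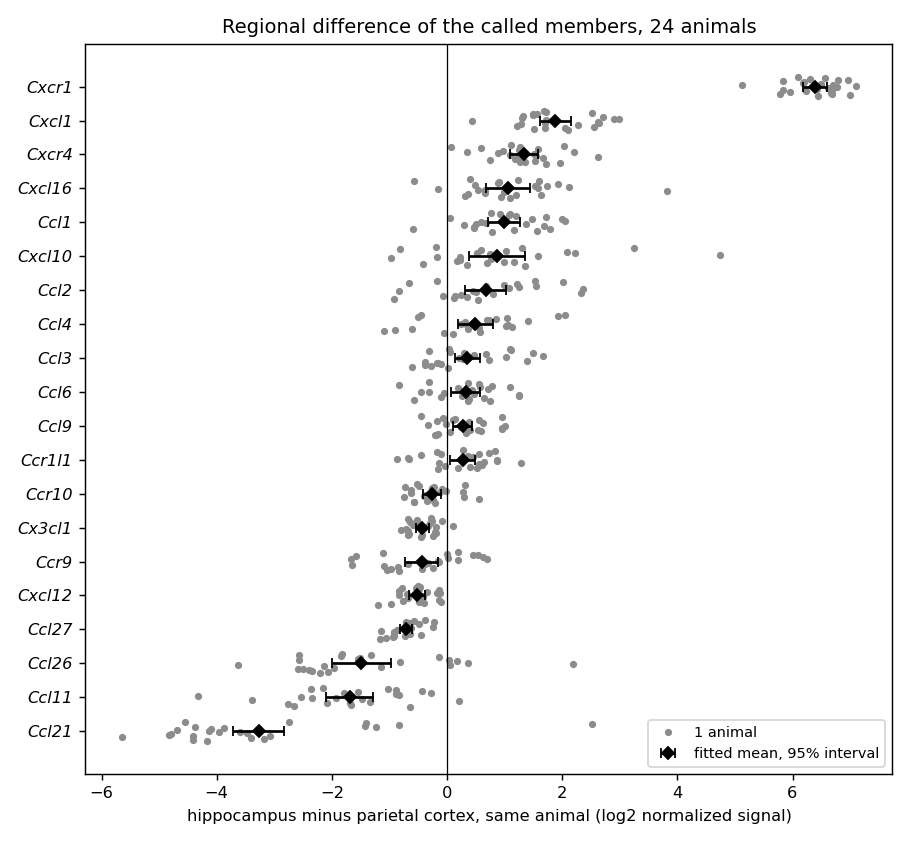
Regional difference for the 20 called members (y axis), as hippocampus minus parietal cortex in the same animal on the log2 scale (x axis); gray points are the 24 animals and black diamonds the fitted mean with its 95% interval. Points for Cxcr1, Cxcl1 and Cxcr4 lie right of 0 in all 24 animals, those for Ccl27 and Cxcl12 left of 0 in all 24, and 1 animal lies far from the others for Ccl21.

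Cell type markers moved between the regions too. Of 12 microglial markers 6 were higher in the hippocampus and 0 lower, with a median difference of 0.21, and 6 of 7 choroid plexus markers were higher, with summed levels from 4.98 to 11.13 in the hippocampus and from 3.47 to 9.46 in the cortex. Of 5 astrocyte markers 3 were higher in the hippocampus and 0 lower. Of 4 oligodendrocyte markers 3 were higher and 1 was lower. Of 5 endothelial markers 3 were lower in the hippocampus, as were 3 of 6 neuronal markers. These marker counts also stand beside 26.3% of all probes called higher and 23.2% called lower, and the part of these cells in the regional differences was not tested. Among other genes of the pathway, Mmp9, a protease that trims CXC ligands, was lower in the hippocampus, with a difference of -2.11 (adjusted p = 7.10e-08), the decoy receptor Ackr2 was lower (-0.57) and the atypical receptor Ccrl2 was higher (0.47). Of 29 tested genes for receptor signaling, 8 were higher in the hippocampus, led by Ptk2b with 0.90, and 5 were lower, near the shares of 26.3% and 23.2% among all probes.

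With age 2 members were higher in the hippocampus, Ccl3 and Ccl4, which encode MIP-1alpha and MIP-1beta, ligands that attract monocytes and lymphocytes. They lie next to each other in the CC ligand cluster of chromosome 10 in RefSeq, after Ccl5, Ccl9 and Ccl6. All other members tested in the hippocampus, and all 32 tested in the cortex, failed the test. Among all probes 0.421% were called higher and 0.0892% lower with age in the hippocampus, against 2 of 33 members higher and 0 lower. In the cortex 0.236% were higher and 0.166% lower, against 0 of 32 members. At an unadjusted limma p under 0.05 there were 10 of 33 members in the hippocampus, beside 13.3% of all probes. The cortex had 6 of 32 members at that threshold, beside 14.3% of all probes. The members' median age difference was 0.20 in the hippocampus and 0.03 in the cortex, and that of all probes was -0.01 in each.

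Ccl3 was above background in every array. In the hippocampus its level ran from -1.65 to -0.78 (median -0.96) in the 8 young animals and from -0.52 to 0.78 (median 0.18) in the 16 aged animals, so the ages did not overlap. The young sham animals read -0.78, -1.31, -0.91 and -0.85 and the young iTBS animals -1.01, -0.85, -1.02 and -1.65. The AU sham animals read 0.64, 0.11, 0.16 and 0.20, and the AI sham animals -0.12, -0.52, 0.06 and -0.02. The AU iTBS animals read -0.39, 0.10, 0.78, 0.23 and 0.67, and the AI iTBS animals 0.74, 0.52 and 0.60. Every aged group lay above both young groups. The age difference, averaged over sham and iTBS groups, was 1.30 (SE 0.135, adjusted p = 5.27e-05), or 2.47-fold.

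The Ccl3 difference was 1.28 (SE 0.144) in the animals of the first scan batch and 1.38 (SE 0.323) in those of the later batches, where it was not called (adjusted p = 0.306). In sham animals alone it was 1.03 (adjusted p = 0.139) and in stimulated animals alone 1.58 (adjusted p = 0.0488). In the cortex, Ccl3 ran from -1.27 to -0.46 (median -0.75) in young and from -1.61 to 0.58 (median -0.46) in aged animals, and these ranges overlapped; the difference was 0.39 (SE 0.204, adjusted p = 0.378). The age difference was larger in the hippocampus than in the cortex by 0.91 (SE 0.219), which did not pass the test over all probes (unadjusted p = 4.69e-04, adjusted p = 0.298); 0.0237% of all probes did and 0 of 36 members.

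Ccl4 was near the detection limit, above background in 6 of 16 aged and 1 of 8 young hippocampal arrays. It ran from -4.64 to -2.47 (median -3.74) in young and from -3.84 to -1.71 (median -2.45) in aged animals, with overlap. The difference was 1.19 (SE 0.268, adjusted p = 0.0495) and sat at the threshold: the call was lost on leaving out 19 of the 24 animals singly, and was kept without young sham 1, young sham 3, AU sham 3, AU iTBS 4 or AI sham 2. Over these fits the difference ran from 0.99 to 1.35. With normexp background correction it was 0.24 (adjusted p = 0.229), with the replicate block 1.14 (adjusted p = 0.0773), in the first scan batch 0.89 (adjusted p = 0.677) and in the later batches 1.94 (adjusted p = 0.355).

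**Figure D3:**
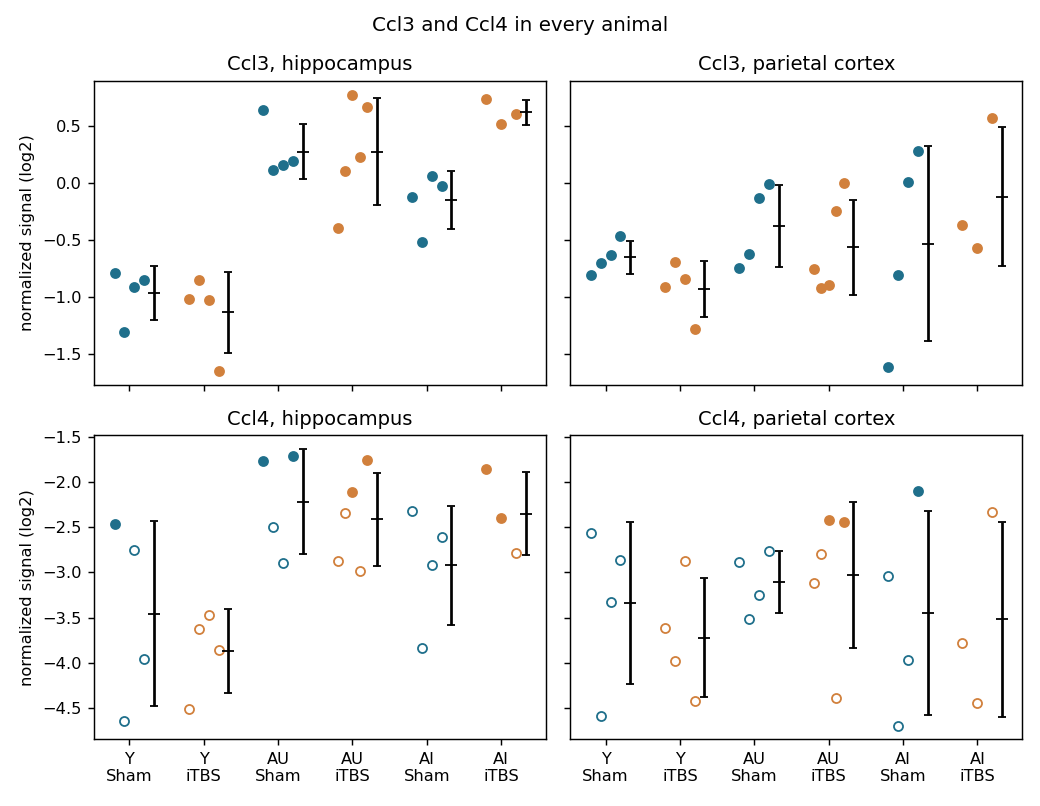
Normalized signal (log2, y axis) of Ccl3 and Ccl4 in every animal of the 6 groups (x axis) in the hippocampus and parietal cortex; filled points were above background, open points were not, blue is sham, orange is iTBS, and bars are the group mean and SD. In the hippocampus all 16 aged animals lie above all 8 young animals for Ccl3, whereas the ages overlap for Ccl4 and, in the cortex, for both genes.

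Microglial markers differed with age in the hippocampus as well. Of 12 markers 11 had a positive difference and 3 were called: the lysosomal Cd68 (0.78, adjusted p = 4.92e-04), the receptor Trem2 (0.49, adjusted p = 6.73e-04) and the integrin Itgam (0.49, adjusted p = 0.0496). The summed level of the list ran from 9.02 to 9.30 in young and from 9.25 to 9.75 in aged hippocampus, and from 9.02 to 9.71 and from 8.86 to 9.74 in the cortex, where 0 markers were called. All 12 were above background in all arrays. Of the markers of border macrophages, neutrophils, and T and B cells, 0 were called with age in either region. In the hippocampus their summed levels overlapped between young and aged animals: 0.48 to 1.53 and 0.47 to 1.84 for border macrophages, -0.68 to 1.51 and -0.18 to 1.84 for neutrophils, and 3.48 to 4.76 and 3.65 to 4.61 for T and B cells. Of the neutrophil markers there, S100a9 gave 0.87 (limma, adjusted p = 0.193), S100a8 0.68 (adjusted p = 0.260) and Camp -0.38 (adjusted p = 0.731). The part of microglial number or state in the Ccl3 difference was not tested.

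The members with the next smallest age p in the hippocampus did not pass the test over all probes: Cxcl16, Cxcl17 and Ccl2 gave 0.41 (adjusted p = 0.169), 0.60 (adjusted p = 0.191) and 0.95 (adjusted p = 0.225). Ccl2, the main monocyte attractant, ran from -2.48 to -1.16 in young and from -2.26 to 0.18 in aged hippocampus. For Cx3cl1, Cx3cr1, Cxcl12 and Cxcr4 the ages differed little by the brightest probe: their medians in young and aged hippocampus were 9.65 and 9.69, 5.87 and 5.74, 5.28 and 5.24, and 0.18 and -0.16. In the cortex they were 10.01 and 10.05, 5.92 and 5.70, 5.80 and 5.74, and -1.37 and -1.36. None of these was called for age in any alternative, and the sign of the difference turned in 11 (hippocampus) and 16 (cortex) of 39 alternatives for Cx3cl1 and in 20 of 39 for Cxcr4 in the cortex. For Cxcr4 in the hippocampus, Ccl2 in the cortex, and Cx3cr1 and Cxcl12 in both regions it turned in 1 or 2 of 39. These counts leave out the other probes. For Cxcl12 the age difference in the hippocampus was -0.04 by the brightest probe, 0.33 by the next (limma, adjusted p = 0.472) and -0.25 by the remaining probe (adjusted p = 0.523). In the cortex it was -0.10, -0.03 (adjusted p = 0.933) and -0.65 (adjusted p = 0.256). The other pathway genes gave 0 calls for age in either region.

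Cognitive status, AI against AU, gave 0 called members in the hippocampus (0.00308% of all probes called) and 0 in the cortex (0% of all probes). At an unadjusted limma p under 0.05 there were 2 of 33 members in the hippocampus, beside 6.69% of all probes. The cortex had 3 of 32 members at that threshold, beside 9.69% of all probes. The smallest p belonged to Ccl21 in the hippocampus, with a difference of 1.86 (SE 0.388, unadjusted p = 1.08e-04, adjusted p = 0.650). All 9 AU animals were below background, from -5.04 to -4.47, and 3 of 7 AI animals were above it, with -2.68 in AI sham 2, -0.23 in AI sham 4 and -2.28 in AI iTBS 1.

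Stimulation gave 0 called members in each of the 4 comparisons of iTBS with sham (young, AU, AI, and aged as the mean of AU and AI) in both regions. Among all probes 0% were called in the young, AU, AI and aged hippocampus and in the young, AU and aged cortex, and 0.00613% in the AI cortex. At an unadjusted limma p under 0.05 there were 1, 1, 3 and 2 of 33 members in the young, AU, AI and aged hippocampus, beside 4.51%, 2.29%, 1.95% and 2.48% of all probes. In the young, AU, AI and aged cortex there were 1, 4, 5 and 1 of 32 members, beside 2.70%, 8.38%, 4.09% and 2.92%. A positive difference was seen in 9, 19, 16 and 18 of 33 members in the young, AU, AI and aged hippocampus. Of all probes 45.9%, 49.5%, 51.3% and 49.8% had a positive one there. In the cortex a positive difference was seen in 7, 14, 11 and 15 of 32 members, beside 47.7%, 55.4%, 47.9% and 52.4% of all probes. The difference between the aged and young effects was called for 0 members in either region (0% of all probes), and so was the difference of the young or aged effect between regions (0% of all probes).

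The members with the 2 smallest p values per comparison are given as values, since none passed the test. Choosing members by a small p favors groups that do not overlap, so a lack of overlap stated for them in either region adds no support. The share of all probes without overlap was not counted. In the AI hippocampus, Ccl3 read -0.12, -0.52, 0.06 and -0.02 in sham and 0.74, 0.52 and 0.60 in iTBS animals, a difference of 0.77 (SE 0.237, adjusted p = 1.00). Ccl17, a ligand of Ccr4, read -0.26, 0.22, -0.22 and -0.32 in sham and 0.97, 0.40 and 0.30 in iTBS animals, a difference of 0.70 (SE 0.212, adjusted p = 1.00). Neither pair of groups overlapped. Under a selection rule rebuilt here from the thresholds in the study's methods, which may differ from the rule as the study ran it, these genes were 2 of 15 probes selected in the AI hippocampus, and 0 members were selected in the other 7 comparisons.

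In the AU hippocampus Cxcl10 read -0.47, 0.04, -0.63 and -0.94 in sham and 0.27, 3.22, 0.42, -0.23 and 0.31 in iTBS animals. The difference was 1.30 (SE 0.592, adjusted p = 1.00); iTBS animal 2 was far above the rest, and without it the difference was 0.69. Cxcl17, a mucosal chemokine, gave 0.48 (SE 0.282, adjusted p = 1.00). In the young hippocampus Cxcr1 read 1.79, 2.23, 2.14 and 2.04 in sham and 1.94, 1.40, 1.58 and 1.43 in iTBS animals, a difference of -0.46 (SE 0.214, adjusted p = 0.932). Cxcr4 read 0.54, 0.30, 0.33 and -0.02 in sham and 0.18, -0.53, -0.48 and 0.19 in iTBS animals, a difference of -0.45 (SE 0.225, adjusted p = 0.932). Both pairs overlapped. Over the aged animals Ccl3 gave 0.39 (SE 0.158, adjusted p = 0.978) and Ccl6 -0.48 (SE 0.219, adjusted p = 0.978).

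In the young cortex Ccl9 read -0.59, -0.93, -0.94 and -1.06 in sham and -1.39, -1.59, -1.31 and -1.20 in iTBS animals. The groups did not overlap, and the difference was -0.49 (SE 0.180, adjusted p = 1.00). Ccl21 gave 0.66 (SE 0.345, adjusted p = 1.00) there. In the AU cortex Cx3cl1 read 10.17, 10.25, 10.49 and 10.34 in sham and 9.87, 9.70, 9.64, 10.15 and 10.04 in iTBS animals, without overlap, a difference of -0.43 (SE 0.150, adjusted p = 0.578). Ccl27 gave -0.35 (SE 0.139, adjusted p = 0.578). In the AI cortex Ccl21 read -1.34, -1.25, -2.14 and -2.74 in sham and -0.88, -0.36 and -1.03 in iTBS animals, without overlap, a difference of 1.11 (SE 0.373, adjusted p = 1.00). Cxcl13 gave -2.09 (SE 0.767, adjusted p = 1.00) but was above background in 2 of the 7 AI cortical arrays. Over the aged cortex Ccl21 gave 0.69 (SE 0.248, adjusted p = 1.00) and Cxcl13 -1.05 (SE 0.511, adjusted p = 1.00).

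**Figure D4:**
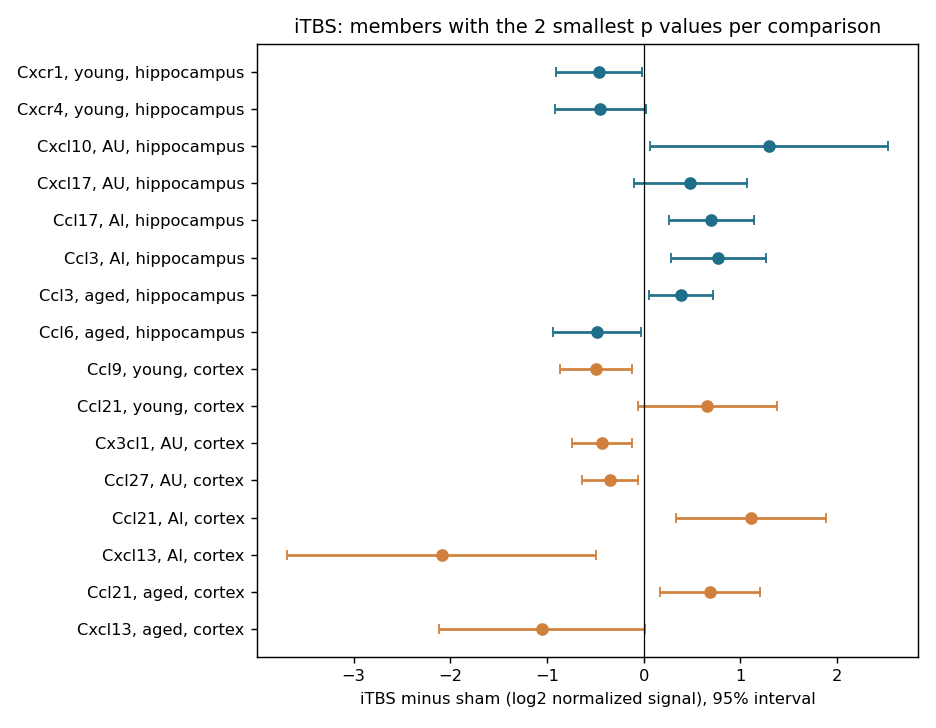
iTBS minus sham difference (log2, x axis) with its 95% interval for the 2 members with the smallest p in each comparison (y axis, named by gene, animals and region); blue is hippocampus and orange is cortex. The intervals are unadjusted for the number of members, and the differences run from -2.09 to 1.30.

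Both regions of an animal could be compared beyond the group means. For 23 members above background in at least 12 animals of each region, each animal's deviation from its group mean was correlated between hippocampus and cortex. Of 23 such relations, 16 had a positive r, with a median of 0.202 (0.213 in the first scan batch). The correlation was not computed over all probes, so neither these values nor the number passing can be called particular to the members. Only Ccl5, known as RANTES and a product of T cells and activated glia, passed: Pearson r = 0.668 (permutation p = 3.4e-04, adjusted p = 0.00782) and Spearman rho = 0.705 (permutation p = 1.8e-04, adjusted p = 0.00414), over 24 animals. AU sham animal 4 read 1.45 in the hippocampus and 2.81 in the cortex, AI iTBS animal 1 read 2.46 and 1.22, and young iTBS animal 4 read -0.19 and -0.09. Without the 2 animals farthest from the hippocampal median r was 0.692 (22 animals, permutation p = 3.0e-04), and in the 15 animals of the first scan batch it was 0.775 (permutation p = 5.9e-04, adjusted p = 0.0136). Deviations within a group sum to 0, but the permutation treated them as free, so all these p-values tend to be too small. This weighs most in the first batch, where some groups held 2 animals. The 15 animals are also part of the 24, so that value is not a separate check. The later batches held too few animals per group for a value. Both regions were scanned in the same batch in 16 animals, among them all 15 of the first batch, and in different batches in 8.

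**Figure D5:**
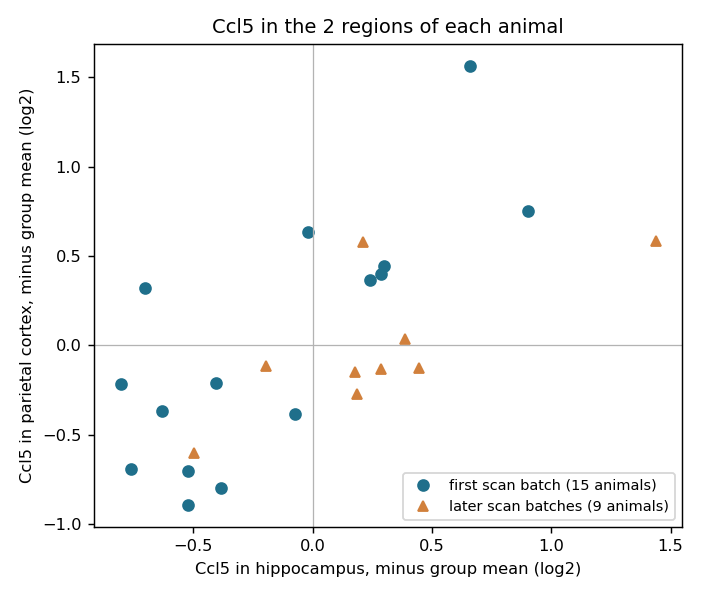
Ccl5 in the hippocampus (x axis) and parietal cortex (y axis) of each of 24 animals, as log2 deviation from the group mean; circles are the 15 animals of the first scan batch and triangles the 9 of later batches. Deviations in the regions were correlated (r = 0.668).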

How the data were processed

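Single-animal RNA from both regions was hybridized to 1-color arrays, with 48 first arrays, 7 technical repeats and 1 array whose labels name conflicting groups, which entered no comparison. The scanner's Feature Extraction software made the deposited intensity values, background-corrected and not normalized between arrays. The authors also deposited a table of score values, which they made by z-score normalization of log signal per array (column medians -0.07 to 0.03). Z-scores recomputed over all spots of an array, control spots included, matched that table within 0.005. The values analyzed here differ from it, as they were z-scored over non-control probes after outlier spots were dropped. The deposited table served as an alternative.

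Following the study's methods, log2 intensity was z-scored per array and multiplied by the mean SD (4.08). Outlier spots (267 to 1448 per array) were dropped and repeats averaged into their animal, except 1 cortical repeat of AI iTBS animal 2, whose r with its own first array was 0.087 and with AI sham animal 2 was 0.683. Of all probes 59.3% to 69.7% were above background on an array. Probes above background in at least 3 of 24 animals were fitted over all 6 groups with limma 3.58.1 in R 4.3.3, and p-values were Benjamini-Hochberg adjusted over all tested probes, with calls at 0.05. They measure the spread between animals. The fit was tested on simulated data. Arrays were scanned on 3 days, 15 animals first and 9 later. RefSeq named 46.3% of the probes. A gene that the naming rule also finds is not reported here, and no count of members includes it.

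Named genes were those called, the 2 with the smallest p per iTBS comparison, and Cx3cl1, Cx3cr1, Cxcl12, Cxcr4, Cxcl13 and Ccl2. Ccl5 and the promoters shown were singled out after their values were seen. Members and lists were chosen with earlier results of these data known. Alternatives covered normalization, background, filter, repeats, slide, scan batch, replicate number, probe and animals. The number of animals limits the precision.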

Additional observations from a re-analysis of the deposited data

Results flagged for a closer look

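For the 24 named genes, 240 groups of 4 or 5 animals were searched for an animal whose gap to its nearest neighbor took up most of the group's range, a test that chance passes in about 1 of 20 groups, and 12 were found. In the hippocampus, Ccl21 was -0.23 in AI sham animal 4 (next -2.58), Ccl26 was -2.58 in AU sham animal 4 (next -4.91), Ccl3 was 0.64 in AU sham animal 1 (next 0.20), Ccl6 was -0.66 in AI sham animal 3 (next -1.85) and Cxcl10 was 3.22 in AU iTBS animal 2 (next 0.42). On the low side there, young iTBS animal 1 had 6.35 for Ccl27 (next 6.81) and 9.27 for Cx3cl1 (next 9.80), and AU sham animal 4 had 4.80 for Cx3cr1 (next 5.74). In the cortex, Cx3cl1 was 10.51 in young iTBS animal 4 (next 10.01), Cxcl16 was 2.86 in AU iTBS animal 5 (next 1.67), Ccr1l1 was -1.85 in AU sham animal 1 (next -2.66) and Cxcr1 was -3.48 in AU iTBS animal 3 (next -4.67, all below background).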

How the results depend on the processing

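Each count of called members and each named difference was recomputed under the alternatives. The regional count of 20 was 11 with the hippocampal slide as a random block and 13 in sham animals. It was 17 without the replicate block (regions unpaired) and 18 to 20 on leaving out 1 animal. The hippocampal age count of 2 was 1 with quantile normalization, the deposited z-scores, normexp, no filter, a minimum of 12 animals, first arrays only, slide as a random block, the first scan batch, the replicate block and stimulated animals, 0 in sham animals and 0 in the later scan batches, and 1 to 2 on leaving out 1 animal; Ccl3 was called in all of these except sham animals and the later batches. The AI hippocampal iTBS count was 2 by the rebuilt selection rule. The later batches, an alternative chosen after seeing the data, gave 1 called member for AU iTBS in the cortex and 1 for cognitive status in the hippocampus. The number of members correlated between regions, 1, was 3 in the first scan batch and 2 without the 2 farthest animals.

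Beside the age differences whose turns of sign are given with their levels, 6 values of named differences turned sign. In the later batches Ccr1l1 gave -0.25 and Cxcl13 0.79 for region, and Ccl21 -0.0054 for aged iTBS in the cortex. Cx3cr1 gave 0.023 with normexp and 0.11 in the first batch for region. With the next brightest probe, also chosen after seeing the data, Cxcl12 gave 0.40. No other normalization moved the median of all probes by over 0.1. The cause of these changes was not tested. Deviations of same-numbered animals of different groups correlated weakly, with a median of 0.063 in the hippocampus and 0.081 in the cortex. For animals with different numbers the medians were -0.015 and -0.047. In the hippocampus 8 and in the cortex 9 of 24 animals correlated best with their own number. All animals with replicate number 1 were scanned in later batches, so these values do not separate replicate number from scan batch. The replicate block changed no other count of calls. Signal over background limits Ccl4, Ccl26, Cxcl13 and other dim members.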

Other observations

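The hippocampal array that entered no comparison, since its title names a young sham animal and its description an AU iTBS animal, read 1.88 for Cxcr1, 0.18 for Ccl3 and 0.51 for Ccl5, all above background, and -3.96 for Ccl4 and -4.23 for Ccl21, both below it. Over 500 probes its r with the first array of AU iTBS animal 4 was 0.914.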
